A study of Mus musculus with 2 samples.

Results

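The comparison set sorted cells labelled left ventricle (LV) against those labelled right ventricle (RV). It was made inside each of 4 sequencing libraries, named A to D, and then across the 4 libraries. Wells of the multichamber experiment labelled LV or RV entered if they held at least 1000 gene UMIs (unique molecular identifiers, which count each captured RNA molecule once) and at least 500 genes, with ERCC spike-in RNA left out. These were 181 cells, 91 LV and 90 RV, of the 281 multichamber cells that passed the same limits and of 332 labelled wells. All cells came from wild type C57BL/6 mice of about 3 months, whose hearts were digested by perfusion with collagenase and protease. Myocytes were sorted without ethanol fixation by large particle fluorescence-activated cell sorting into plates, where the SCRB-seq method tags the poly(A) RNA of each well with a barcode. The labels name no animal, so a library is the unit of replication here and p-values measure only the spread between libraries, which may be technical. The protocol in the labels describes mincing of the ventricle and does not say how the 4 chambers were separated.

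The LV pumps into the systemic circulation against high pressure and the RV into the low-pressure pulmonary circulation. Both arise from different progenitor fields of the embryo, the LV mostly from the first heart field, marked by Tbx5 and Hand1, and the RV from the second heart field, which depends on Hand2 and Isl1. In the adult heart the myocytes of both chambers share 1 contractile apparatus, built on Myh6, Myl2, Myl3 and Ttn, and a metabolism that burns mainly fatty acids. The question addressed by the comparison is which RNA levels set LV and RV myocytes apart when both come from the same library.

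No gene passed the test in either direction. Of 6723 nuclear-encoded genes tested with edgeR's quasi-likelihood test on the UMI counts summed per library and label (8 sums, library as a block), 0 were called higher in LV (0%) and 0 higher in RV (0%) at a Benjamini-Hochberg adjusted p under 0.05, and the smallest adjusted p was 0.999. At an unadjusted p under 0.05 there were 243 genes (3.61%), of which 126 were higher in LV and 117 in RV. DESeq2 also called 0 genes, with 181 at an unadjusted p under 0.05. LV was higher in all 4 libraries for 380 genes (5.65%) and RV for 390 (5.8%). The 4 LV sums all lay above the 4 RV sums for 67 genes (0.997%) and all below them for 56 (0.833%).

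How narrowly the difference was bounded depended on the level of the gene. All 122 genes at 1000 CPM (UMIs per 1000000 nuclear-encoded UMIs, scaled by edgeR's TMM factors) or more had a 95% interval of LV over RV inside 1.5-fold in both directions, and so did 291 of the 320 genes between 300 and 1000 CPM. Between 30 and 100 CPM the count was 10 of 2847, and under 30 CPM it was 0 of 2518. For genes at 1000 CPM or more, a mean LV to RV difference of 1.5-fold over the 4 libraries thus lay outside the interval. For nearly all genes under 100 CPM a mean difference of that size is not excluded. The intervals do not bound the ratio inside a single library, since ratios of opposite direction can cancel in the mean. Fhl2, at a mean of 1696 CPM, had LV to RV ratios of 0.61, 1.02, 1.25 and 0.94 in libraries A to D, with A outside 1.5-fold.

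**Figure D1:**
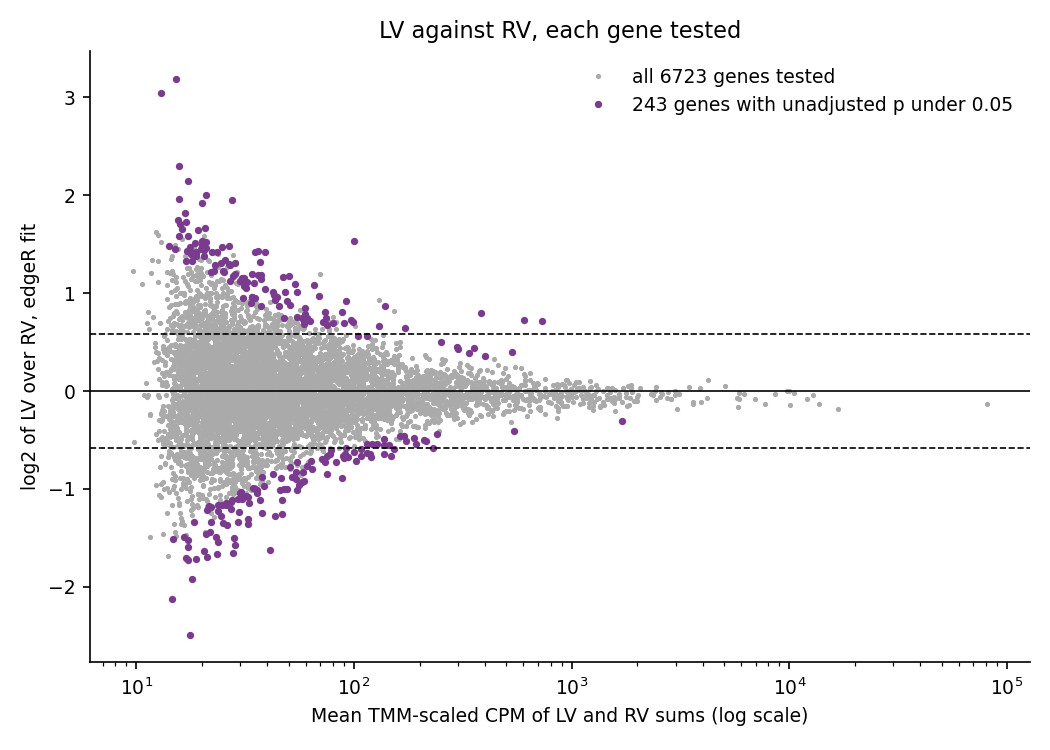
Each point is 1 of the 6723 genes tested, with the mean TMM-scaled CPM of the LV and RV sums on a log axis and the log2 of LV over RV from the edgeR fit on the vertical axis. Purple points are the 243 genes with an unadjusted p under 0.05, and the dashed lines mark 1.5-fold, which no gene at 1000 CPM or more exceeds, while ratios spread widely among low genes.

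The labels were checked first against the cells themselves. Every LV and RV cell held Myl2, the regulatory light chain of ventricular myosin, whose sum stood at 8533, 9273, 11673 and 12296 CPM in LV of libraries A to D and at 11188, 10656, 9374 and 10838 CPM in RV. Some wells held little of it: an RV well of A with 1469 gene UMIs held 3, and an LV well of B with 61820 held 59. Of the 12 genes on the atrial myocyte list, the defining markers Nppa, Myl7 and Sln gave 2, 3 and 4 UMIs over all 181 cells. Other members were present, led by Kcnj3, a potassium channel gene, with 526 UMIs in 107 cells, and Stard10, with 175 in 67 cells. These markers do not tell LV from RV. In the same experiment the cells labelled left and right atrium also carried Myl2, with 0 UMIs of Nppa. Over all gene UMIs, Myl2 stood at 6018 CPM in left atrium and 7512 in right atrium cells, beside 6191 in LV and 5873 in RV. Myl7, the atrial regulatory light chain, gave 81 UMIs in the left atrium cells and 0 in the right atrium cells, against 3 in LV and 0 in RV.

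The sequencing depth differed between the labels in one direction. The median number of gene UMIs per cell was 36283 in LV and 37001 in RV of library A, 42068 and 48935.5 in B, 55354.5 and 71289 in C, and 39009.5 and 51452.5 in D. RV was thus deeper in 4 of 4 libraries, with a geometric mean LV to RV ratio of 0.839 (mean log2 -0.25, SD 0.17, n = 4) and the two-sided exact paired permutation test gave the smallest p that 4 pairs allow (2 of 16 sign patterns). Among cells with at least 5000 gene UMIs the ratio in library A was 1.08, so that RV was deeper in 3 of 4 libraries (exact paired permutation p = 0.25). The 8 sums held 991687 to 1651526 gene UMIs each. Wells passing the limits were 91 of 96 for LV (94.8%, exact Clopper-Pearson interval 88.3 to 98.3%) and 90 of 96 for RV (93.8%, 86.9 to 97.7%).

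Gene UMIs per ERCC UMI, a measure of RNA per well relative to an added standard, showed no common direction. The medians in LV were 103, 119, 104 and 105 in libraries A to D, and in RV they were 72.6, 122, 159 and 109. LV was higher in library A and RV in the other 3 libraries, with a mean log2 ratio of -0.052 (SD 0.46, exact paired permutation p = 0.625). Detected genes per cell, with each cell thinned to 5000 gene UMIs (5 shallower cells left out, 2 of LV and 3 of RV), had medians of 1332, 1210, 1253 and 1277.5 in LV and 1417, 1226, 1188 and 1231 in RV (exact paired permutation p = 1). Unthinned, the medians were 3719 genes over all LV cells and 4177 over all RV cells.

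Mitochondrially encoded RNA took a large part of every library. Its share of the summed gene UMIs was 36.5% in LV and 38.1% in RV of library A, 44.3 and 44.6% in B, 42.9 and 43.8% in C, and 40.2 and 44.9% in D. The share of the sums was higher in RV in 4 of 4 libraries, by less than 1 percentage point in B and C. Single deep wells of low share enter these sums. They were an LV well of A (91793 gene UMIs, 8.76%), an LV well of B (61820, 15.3%) and an RV well of C (93261, 13.0%). The order of the sums may rest on them and was not recomputed without them. The median over cells did not have that order in library A, where it was 39.5% in LV and 35.7% in RV. Over the 4 libraries the medians differed by a mean of -2.53 percentage points (SD 4.82, exact paired permutation p = 0.375). Of the mitochondrially encoded genes, fitted together with the nuclear ones, 0 passed the edgeR test, and the smallest unadjusted p was that of the 12S ribosomal RNA mt-Rnr1 (log2 LV over RV -0.18, edgeR adjusted p = 0.998, higher in RV in 4 of 4 libraries).

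**Figure D2:**
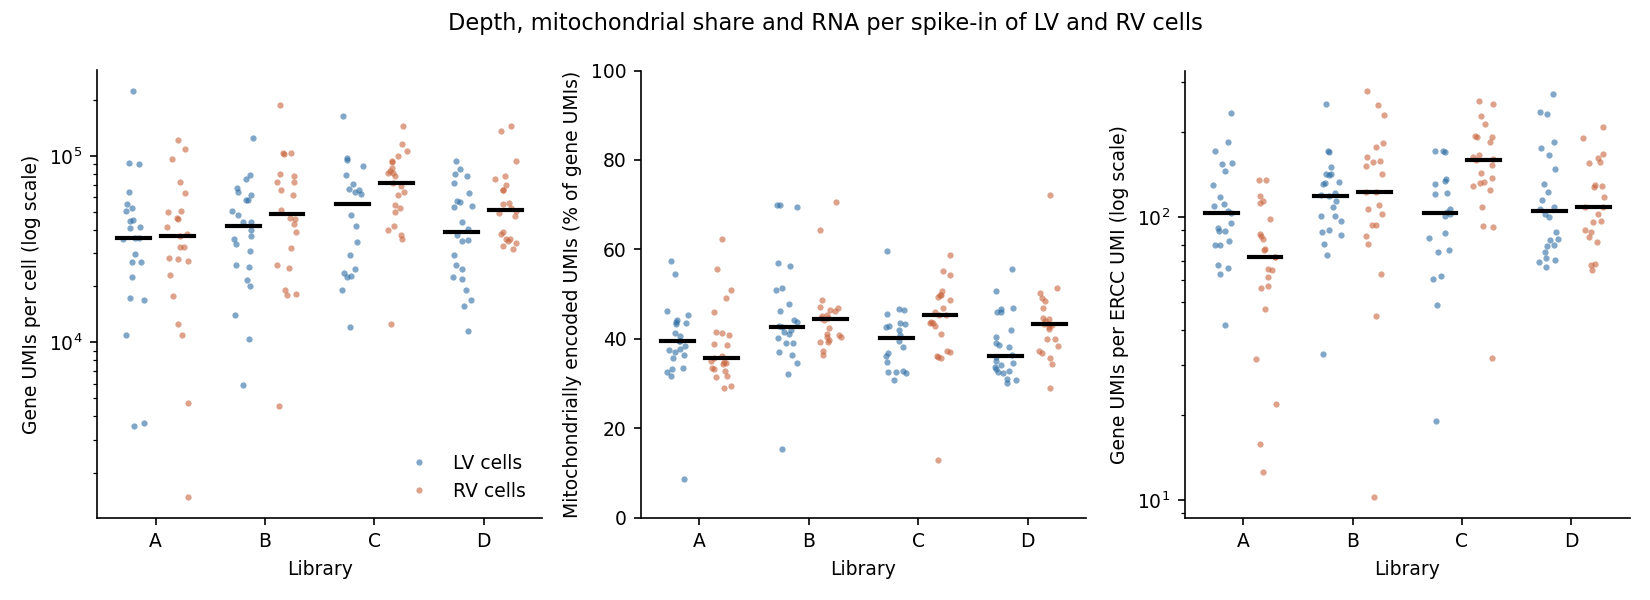
Points are single cells of libraries A to D, LV in blue and RV in orange, and black bars are medians: gene UMIs per cell (log axis), percent of gene UMIs that are mitochondrially encoded, and gene UMIs per ERCC UMI (log axis). The median depth of RV lies above that of LV in each library, from 37001 against 36283 in A to 71289 against 55354.5 in C, and the 2 labels overlap throughout.

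Most contractile genes had narrow intervals between LV and RV. Of 26 tested genes of the thick and thin filaments, titin and the Z-disc, 0 passed the test, 20 had an interval inside 1.5-fold, and the median log2 of LV over RV was -0.091, beside -0.006 for all genes tested. Ttn, the giant spring of the sarcomere, had 14673, 15710, 15871 and 15661 CPM in LV of A to D and 15119, 22843, 14174 and 19201 in RV (log2 -0.18, 95% interval -0.45 to 0.095). The LV values lay close together and the RV values of B and D stood above them. Myh6, the adult myosin heavy chain, was between 8995 and 10025 CPM in LV and between 9342 and 12846 in RV (log2 -0.14, -0.40 to 0.13). Myl3, the ventricular essential light chain, had a log2 ratio of 0.0041 (-0.26 to 0.27). The slow myosin heavy chain Myh7 had a log2 ratio of -0.20 (-0.52 to 0.12), lower in LV in 4 of 4 libraries. Pdlim3, a Z-disc protein, had the smallest unadjusted p of the list (log2 -1.005, 95% interval -1.996 to -0.014, edgeR adjusted p = 0.999). It stood at 144 CPM in RV of library B and between 35.5 and 52.5 in the other RV sums, and library D had the opposite order, with 63.6 CPM in LV and 35.5 in RV.

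**Figure D3:**
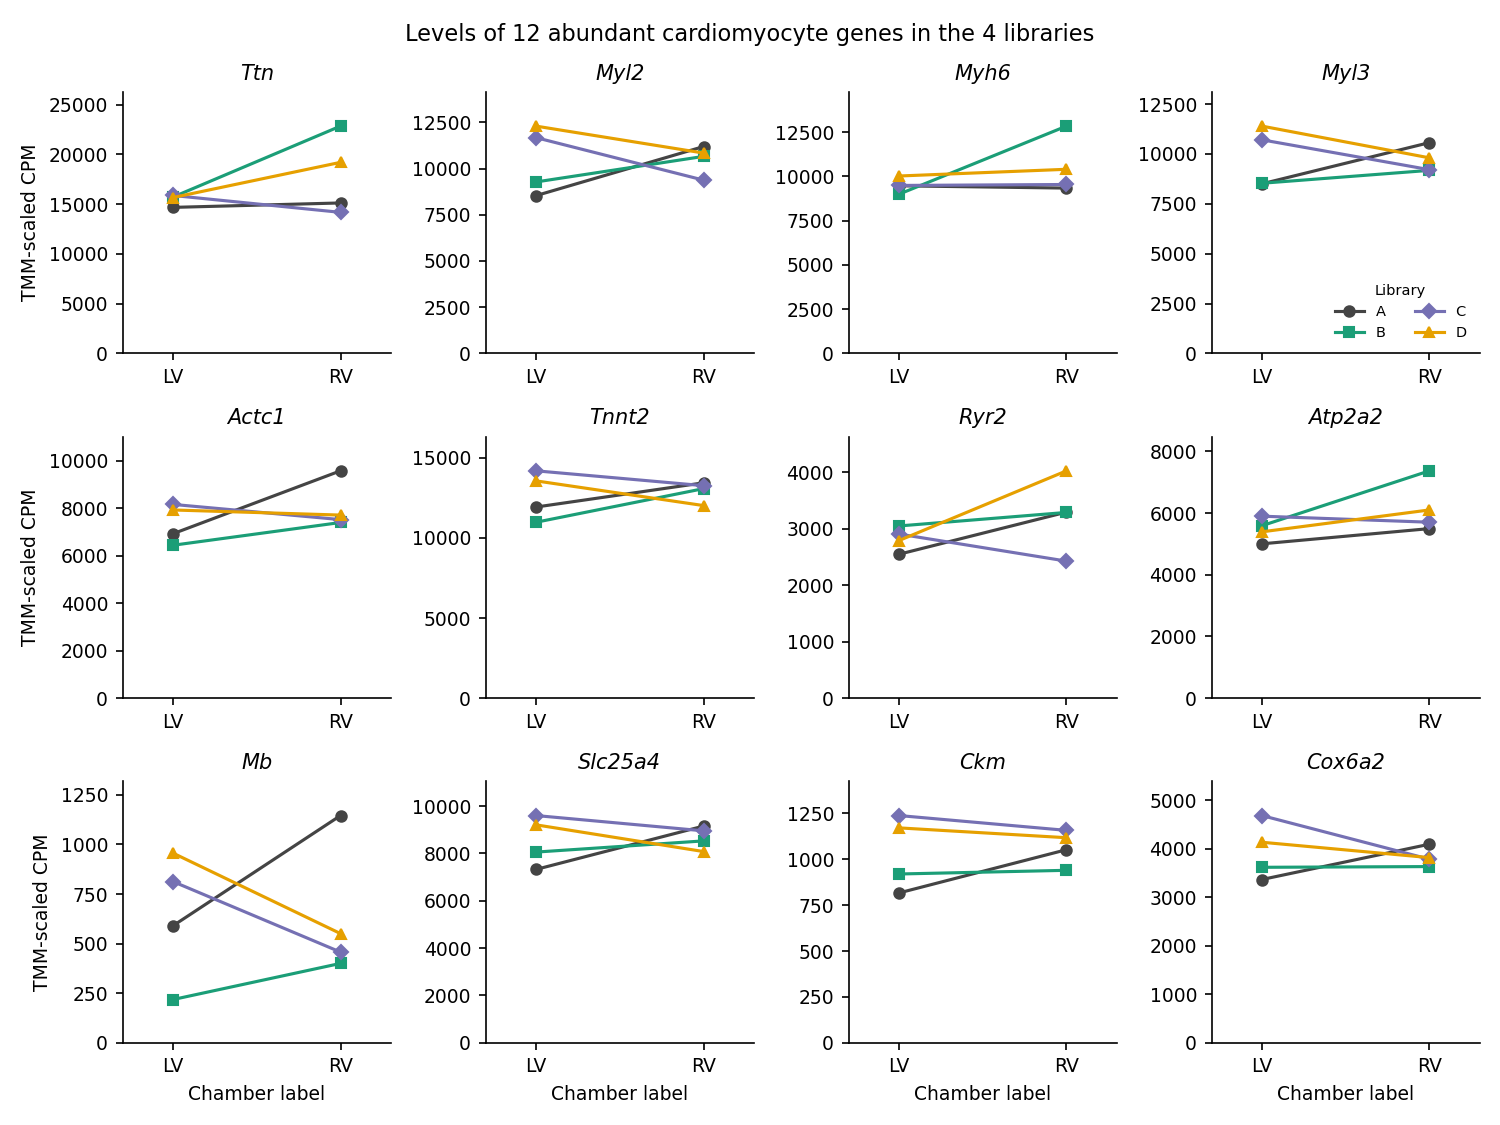
TMM-scaled CPM of 12 abundant cardiomyocyte genes in LV and RV, with 1 line per library and the vertical axes starting at 0. The lines of libraries A and B rise from LV to RV for Myl2, Myl3, Tnnt2 and Mb, and those of C and D fall; none of the 12 passed the test.

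Developmental regulators of the left and right heart were detected and did not pass the test. Of 22 listed genes 10 were tested, 0 passed, and 0 had an unadjusted p under 0.05. Their median log2 was 0.31, with library medians of -0.12 (A), 0.71 (B), 0.28 (C) and -0.31 (D), so the libraries did not share a direction. Tbx5, the T-box factor of the LV field, stood at 26.7, 23.3, 38.04 and 31.01 CPM in LV and at 29.2, 15.4, 13.9 and 24.1 in RV (log2 0.56, -0.49 to 1.61, edgeR adjusted p = 0.999). It was higher in LV in 3 of 4 libraries, with overlapping groups. Hand2, the basic helix-loop-helix factor required for the embryonic RV, stood at 21.1, 23.3, 11.1 and 18.6 CPM in LV and 32.5, 11.2, 13.9 and 5.68 in RV (log2 0.38, -0.92 to 1.67), with no common direction. Hand1 and Irx2 have no row in the table used here.

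The other tested regulators did not pass either. Pcsk6, a proprotein convertase, differed most inside libraries and in opposite directions, with 16.9, 49.97, 14.3 and 6.20 CPM in LV and 1.62, 5.60, 43.9 and 26.97 in RV (log2 0.34, -1.46 to 2.14). Prdm16, a chromatin regulator of compact ventricular myocardium, was at 167, 130, 52.3 and 86.8 CPM in LV and 102, 72.8, 40.7 and 96.5 in RV (log2 0.44, -0.12 to 1.01). Gata6 had a log2 ratio of 0.40 (-0.21 to 1.001) and Gata4 of 0.28 (-0.29 to 0.85). Tbx20, which keeps the adult myocyte program, was the steadiest member, between 87.1 and 98.3 CPM in LV and between 92.3 and 98.6 in RV. Smyd1, a muscle methyltransferase, was higher in RV in 4 of 4 libraries (299, 348, 299.6 and 352 CPM in LV against 362, 486, 341 and 407 in RV), with a log2 ratio of -0.29 (-0.62 to 0.048). Its LV and RV values overlapped, since 352 in LV of D lay above 341 in RV of C.

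A further member of that list lay below the limit for testing. Sema3a, a guidance cue that repels sympathetic nerve fibres, gave 9, 5, 13 and 24 UMIs in LV of libraries A to D and 1, 2, 4 and 4 in RV, and a single cell held 20.97% of its UMIs. Every LV count lay above every RV count, and with genes of at least 50 UMIs tested, edgeR gave a log2 ratio of 2.31 that did not pass the adjustment. It was detected in 22 of the 181 cells. Isl1 and Irx1 gave 1 and 2 UMIs in all, too few to compare.

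Calcium handling and electrical genes also gave 0 calls. Of 19 tested calcium handling genes 14 had an interval inside 1.5-fold, and the median log2 was -0.070. Cacna1c (chromosome 6, 118587240 to 119196418, minus strand, GRCm38), which forms the pore of the L-type calcium channel, was higher in RV in 4 of 4 libraries: 1263, 1959, 1457 and 1456 CPM in LV against 1664, 2149, 1648 and 2078 in RV. The unadjusted interval excluded 0, and the gene did not pass the adjustment (log2 -0.31, -0.58 to -0.028, edgeR adjusted p = 0.999), and the groups overlapped through library B, the highest in LV. Ryr2, the calcium release channel, had a log2 ratio of -0.19 (-0.48 to 0.11), and Atp2a2, the calcium pump of the sarcoplasmic reticulum, of -0.17 (-0.43 to 0.094). The 8 tested sodium channels and pumps had a median log2 of 0.12, and all 8 estimates lay inside 1.5-fold. Of 12 tested potassium channel genes, none was on the same side in all 4 libraries. The transient outward channel genes Kcnd2 and Kcnip2 had log2 ratios of -0.19 (-0.51 to 0.13) and -0.18 (-0.60 to 0.24).

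Genes of energy metabolism gave 0 calls. All 29 tested nuclear-encoded subunits of the respiratory chain had a fitted ratio inside 1.5-fold, 28 of them with the whole interval. Their median log2 was -0.043. Cox6a2, the muscle subunit of cytochrome oxidase, had a log2 ratio of 0.034 (-0.24 to 0.31), and Atp5b, of ATP synthase, of -0.037 (-0.30 to 0.23). All 22 tested genes of fatty acid uptake and oxidation had a fitted ratio inside 1.5-fold, 18 of them with the whole interval. Lpl, lipoprotein lipase, had a log2 ratio of -0.081 (-0.38 to 0.21) and Acsl1, which activates fatty acids, of -0.32 (-0.65 to 0.015). Of 22 tested genes of glucose use 11 had their interval inside 1.5-fold, as had 6 of 16 regulators of energy metabolism. Phka1, a subunit of phosphorylase kinase, was higher in RV in 4 of 4 libraries (22.5, 39.98, 36.5 and 23.3 CPM in LV against 56.8, 72.8, 49.3 and 63.9 in RV). Its groups did not overlap, yet it did not pass the adjustment (log2 -1.01, -1.79 to -0.22, edgeR adjusted p = 0.999).

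Immediate-early genes, which many stimuli induce quickly, had a median log2 of 0.15 over 21 tested genes. The library medians were 0.67 in A, -0.060 in B, 0.15 in C and 0.12 in D. Egr1, a zinc finger factor of this class, was higher in LV in 4 of 4 libraries (374, 298.18, 297.99 and 409 CPM against 248, 238, 232 and 301 in RV), with a log2 ratio of 0.43 (0.079 to 0.78, edgeR adjusted p = 0.999). The groups overlapped, because 301 in RV of D lay above the LV values of B and C. Junb, Dusp1 and Socs3 were also higher in LV in 4 of 4 libraries, whereas Fos had a log2 ratio of 0.13 (-0.37 to 0.64) with LV higher in 2 of 4. In the whole list 4 of 21 genes were higher in LV in all libraries, beside 5.65% of all genes, and 1 of 21 higher in RV, beside 5.8%. Heat shock genes (15 tested) had a median of -0.088 and cytosolic ribosomal protein genes (21 tested) of 0.010.

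The 20 leading genes, the 10 with the smallest unadjusted p in each direction among named genes with the same sign in 4 of 4 libraries, were mostly genes of low level. None passed the adjustment (adjusted p = 0.999 for each), and since they were ranked by the test, their order and size describe the sums and lean high. Of the 20, 5 LV-higher and 5 RV-higher genes had groups that did not overlap.

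Among the genes higher in LV, Tmem132c led, a membrane protein gene with 69 UMIs in 23 cells (chromosome 5, 127241808 to 127565793, plus strand). It stood at 32.3, 18.3, 26.9 and 15.5 CPM in LV and at 1.62, 4.20, 3.21 and 1.42 in RV, and a single cell held 24.6% of its UMIs. Rxrg (chromosome 1, 167598384 to 167639623, plus strand, GRCm38), the retinoid X receptor gamma, which partners nuclear receptors such as the PPARs, had 101, 152, 53.9 and 55.8 CPM in LV and 45.5, 49.01, 34.3 and 31.2 in RV. Every LV value exceeded every RV value, and the fitted ratio was 2.12-fold (log2 1.08, 0.42 to 1.74, edgeR adjusted p = 0.999). Rxrg was seen in 95 cells, and its top cell held 8% of the UMIs. Errfi1, a feedback inhibitor of the epidermal growth factor receptor, had 22.5, 24.99, 22.2 and 34.1 CPM in LV against 4.87, 1.40, 9.64 and 5.68 in RV. The groups of Mboat1, a lysophospholipid acyltransferase, and of Rngtt, the mRNA capping enzyme, did not overlap either. Dab2ip, a Ras GTPase-activating protein, Fam126a, Sufu, a brake on Hedgehog signalling, Dguok, a mitochondrial nucleoside kinase, and Actn4, the non-muscle alpha-actinin, completed the 10, with overlapping groups and fitted ratios from 2.14 to 4.02-fold.

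Among the genes higher in RV, Nkiras2 (chromosome 11, 100619244 to 100627607, plus strand), a Ras-like protein that binds inhibitors of NF-kappaB, had the smallest p. It stood at 28.1, 24.99, 4.76 and 24.8 CPM in LV and 42.2, 88.2, 34.3 and 80.9 in RV, a fitted 3.08-fold difference (log2 LV over RV -1.62, -2.53 to -0.71). Itga6, a laminin-binding integrin subunit, had 4.21, 23.3, 20.6 and 9.30 CPM in LV and 34.1, 51.8, 46.1 and 32.6 in RV. P4ha1, a collagen prolyl hydroxylase, and Ralb, a small GTPase, also had groups that did not overlap. Ky, Pde7b, a cyclic AMP phosphodiesterase, Cnot6l, a deadenylase, Mpc1, of the mitochondrial pyruvate carrier, and Vps35, of the retromer, had overlapping groups. Of the 20, 12 kept an unadjusted edgeR p under 0.05 when read counts were tested in place of UMIs. Without cells above 2% of listed markers of other cell types, 12 of the 16 that could be tested did so. Most of these marker UMIs were erythroid (1.21% of nuclear-encoded UMIs in LV and 1.31% in RV), so this limit mainly removed cells with much haemoglobin RNA. With each cell thinned to 5000 nuclear-encoded UMIs 2 could be tested, and 1 of them was under 0.05.

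**Figure D4:**
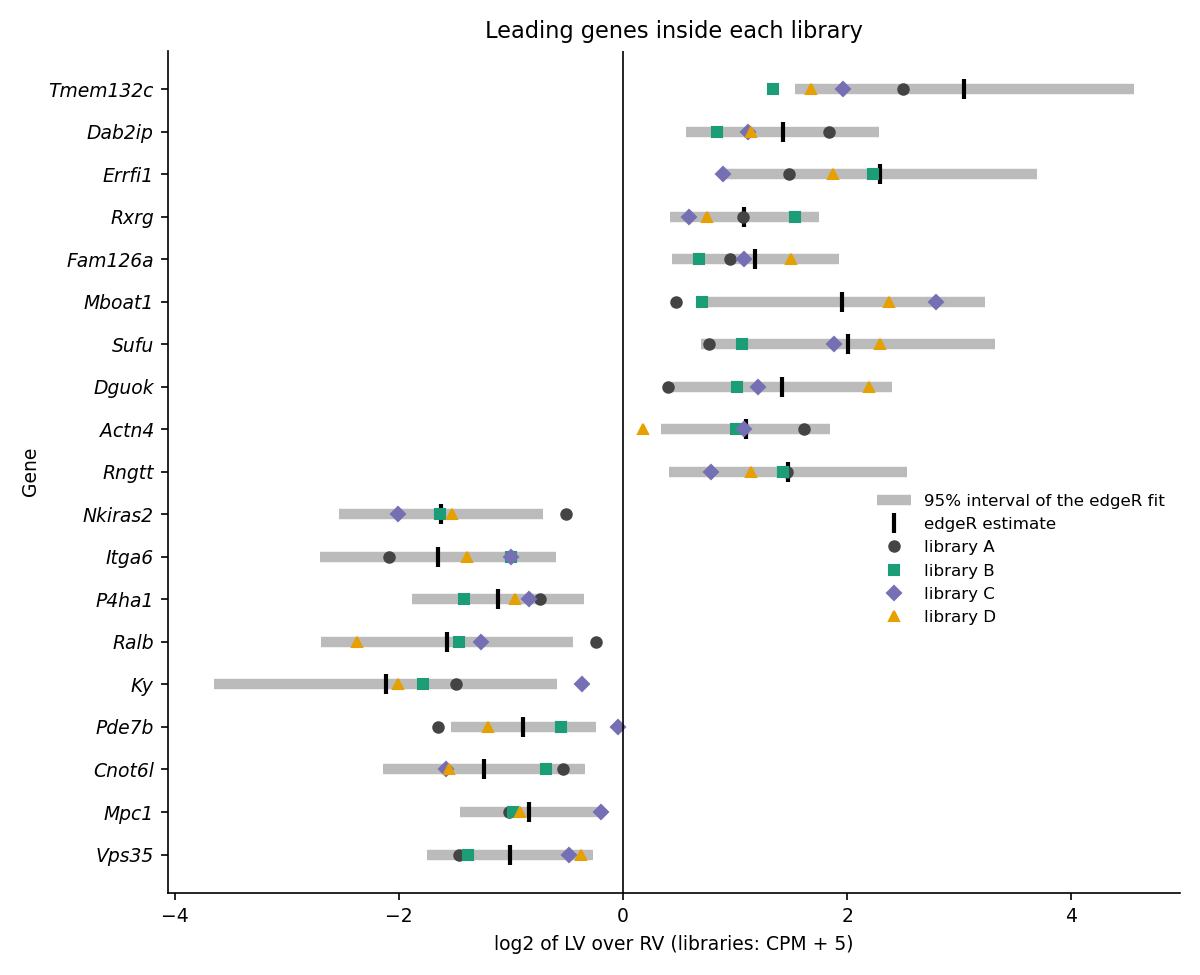
Of the 20 leading genes 19 are shown by row, with log2 of LV over RV inside each library (symbols, CPM plus a pseudocount of 5), the edgeR estimate (black tick) and its 95% interval (grey). All symbols of a gene lie on 1 side of 0, which the choice of the genes fixes, and the scatter between libraries is widest for Mboat1 and Ralb and narrow for P4ha1.

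RNA of the listed markers of other cell types was low in both labels and rested on few cells in the groups that moved. The percentages count these markers only and not all RNA of such cells. Over all cells the marker lists took 1.31% (RV) and 1.21% (LV) of nuclear-encoded UMIs for erythroid genes, and at most 0.0857% each for endothelial, mural, fibroblast, mesothelial and macrophage genes. The median percent per cell over all lists together was 0.895 in LV and 0.668 in RV of library A, 1.27 and 0.555 in B, 2.02 and 1.29 in C, and 0.653 and 0.833 in D. LV was higher in 3 of 4 libraries (exact paired permutation p = 0.25). Of the mural list 6 genes were tested, 0 passed, and Eln, elastin, had the smallest unadjusted p, with 659 CPM in LV of library A and at most 60.1 in the other 7 sums. A single LV cell of library A held 74.0% of the Eln UMIs. That cell had 91793 gene UMIs, 8.76% of them mitochondrially encoded, and 120 Myl2 UMIs. The listed markers took 3.31% of its nuclear-encoded UMIs. Without library C, edgeR called 4 genes higher in LV, Eln, Mgp, Ptprj and Klf4. The Eln-rich cell held 28.97 to 74.0% of their UMIs, and without library C and that cell the test called 0. An LV well of B (61820 gene UMIs, 15.3% mitochondrially encoded) held 59 Myl2 UMIs and 2.41% of listed markers. An RV well of C (93261, 13.0%) held 102 and 2.64%.

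For several myocyte lists the sign of the LV to RV ratio inside a library went with the barcode rows. In libraries A and B the LV wells carried the barcodes of rows 1 and 2 and the RV wells those of rows 3 and 4, and in C and D the rows were exchanged. The respiratory chain list had a median log2 of LV over RV of -0.34 in A and -0.11 in B, and of 0.16 in C and 0.17 in D. The sarcomere list had -0.35 and -0.26 in A and B, and 0.14 and 0.078 in C and D. Both lists were thus higher in rows 3 and 4 in 4 of 4 libraries. Of the 23 program lists with a tested gene, 10 had such a common direction by rows, and 0 by chamber label. Of the 16 sign patterns of 4 libraries, 2 give a common direction. Some lists share genes, such as Myl2 and Myl3, so they are not independent. The atrial list, 1 of the 10, had 2 tested genes. Rows 1 and 2 also held the wells of lowest mitochondrially encoded share. These were an LV well of A (8.76%, 120 Myl2 UMIs), an LV well of B (15.3%, 59) and an RV well of C (13.0%, 102). No well of the other sums lay under 29.0%. The part of these wells in the list medians was not tested. In a fit with library, barcode rows and chamber together, chosen after seeing the data, 29 of 29 respiratory chain genes and 24 of 26 sarcomere genes had a higher estimate in rows 3 and 4, beside 49.7% of all 6723 genes. In the same fit 0 of 11 endothelial and 0 of 7 erythroid genes had a higher estimate there. In libraries A to C endothelial UMIs of rows 1 and 2 rested mostly on single wells, which held 74.7% of them in LV of A, 64.7% in LV of B and 60.5% in RV of C, and the endothelial median log2 of rows 3 and 4 over rows 1 and 2 was -0.050 in B and -0.030 in D. Because the rows are exchanged between libraries, the mean over 4 libraries balances them. It would equally balance a label difference of opposite sign in A, B and C, D. With the rows in the model edgeR called 0 genes between LV and RV, with 280 at an unadjusted p under 0.05.

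The barcode row term gave calls where the chamber term gave none. In this layout the row term is the same contrast as an LV to RV difference of opposite sign in libraries A, B and C, D. The rows and such a reversal of the labels cannot be told apart here. Myoglobin, Mb, the oxygen store of muscle, was higher in rows 3 and 4 by 1.82-fold (edgeR adjusted p = 0.0234, 0.0149% of genes called in that direction). Its wells of rows 3 and 4 stood at 1146, 400, 813 and 957 CPM in libraries A to D and those of rows 1 and 2 at 590, 218, 457 and 551, so rows 3 and 4 were higher in 4 of 4 libraries. Between LV and RV its log2 ratio was -0.035 (-0.57 to 0.50). Vimentin, Vim, a filament of non-myocytes, was 4.51-fold higher in rows 1 and 2 (adjusted p = 0.0234, likewise 0.0149%). Without the Eln-rich cell Mb kept an edgeR adjusted p of 0.0136 and Vim had 0.76. The wells of B and C with the lowest mitochondrially encoded share stayed in that fit. With each cell thinned to 5000 nuclear-encoded UMIs (8 shallower cells left out), only 1497 genes were tested, and Mb had an edgeR adjusted p of 0.103. The 7 of these 1497 genes then called were all higher in rows 1 and 2, among them the haemoglobin genes Hba-a1, Hba-a2 and Hbb-bs. Median detected genes at 5000 gene UMIs were higher in rows 3 and 4 in 4 of 4 libraries, and median depth in 2 of 4. At 10000 gene UMIs library B had the opposite order, with medians of 1907 genes in rows 1 and 2 and 1897 in rows 3 and 4. What the rows correspond to on the plates is not given in the sources used here, and their part in the scatter of LV to RV ratios was not tested beyond this fit.

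**Figure D5:**
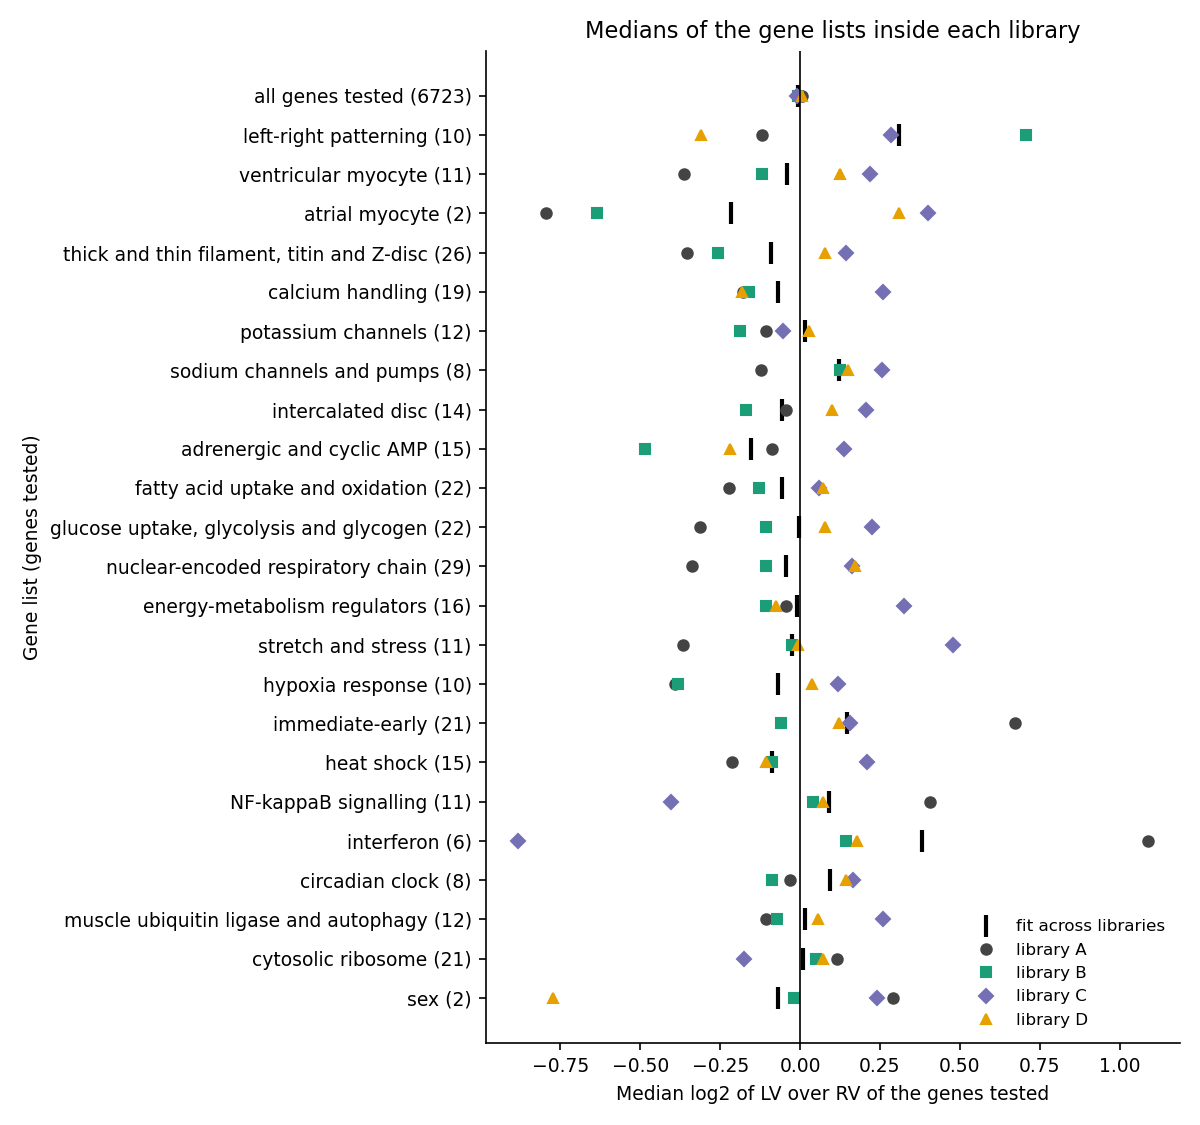
Median log2 of LV over RV of the tested members of each gene list (number tested in brackets) in the fit across libraries (tick) and inside libraries A to D (symbols). For the myocyte lists of contraction, respiratory chain, fatty acids and glucose the symbols of A and B lie left of 0 and those of C and D right of it, and the median of all 6723 genes is near 0 in each library.

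Sums of 1 library had a higher median correlation than sums of the same label from different libraries, with ranges that overlapped. Across genes, Pearson's r of log CPM was 0.857 to 0.863 between LV and RV of a library (4 pairs, median 0.862). It was 0.81 to 0.86 between the same label in different libraries (12 pairs, median 0.844) and 0.818 to 0.855 where both differed (12 pairs). These values describe pairs of sums that share genes and are not independent. A test among the 4 libraries in the same fit, added after seeing the data, called 8 genes (0.119%), against 0 between the labels, and 3 genes without the Eln-rich cell. The 8 were Eln, Mgp, Vwf, Acta2, Msln, Upk3b, Zfp771 and the predicted gene Gm17660. Msln, mesothelin, a gene of the heart's outer lining, gave 0 UMIs in LV and RV of libraries A and D and stood at 39.98 and 40.6 CPM in LV and RV of B and 38.04 and 56.8 in C. A left atrium well of library B held 47.3% of all Msln UMIs, at 9.19 reads per UMI, while the Msln UMIs of LV and RV wells had 1.06 reads per UMI in B and 2 in C.

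Genes held mostly by 1 well were also counted in other wells of the same library, at few reads per UMI. Over all 332 wells, 15 nuclear-encoded genes had at least 100 UMIs and at least 50% of their UMIs in 1 well. These top wells fell in 3 combinations of library and label, and the number of different wells was not counted. For 11 of the 15 genes the other LV and RV wells of the same library had a higher level than those of any other library. Cytl1, which encodes a secreted cytokine-like protein, is the clearest. The Eln-rich LV cell of library A held 265 of its UMIs at 14.6 reads per UMI, and 34 other LV and RV wells of library A held 107 UMIs at 1.17 reads per UMI. Library B and library D held 0 UMIs, and library C 26 at 15.4 reads per UMI. Igf2 gave 131 UMIs in an LV well of library A at 13.9 reads per UMI, and 30 UMIs at 1.27 in 17 other LV and RV wells of that library. The median over the 15 genes was 10.6 reads per UMI in the top well, 2.06 in the other LV and RV wells of its library and 8.28 in LV and RV wells of other libraries.

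UMIs of low read support were then counted over all genes. Gene-by-well values under 2 reads per UMI made up 38.7% of the nonzero values and 7.72% of the UMIs of the 181 cells, against a mean of 7.45 reads per UMI. With these values set to 0, edgeR tested 5520 genes and called 0 between LV and RV, and the test among libraries called 2 genes, Mir6240 and the processed pseudogene Gm10039, whose reads may be shared with copies. Neither was among the 8 named above, of which 2 could still be tested and 0 were called. The source of these UMIs was not tested.

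RNA of the X-inactivation gene Xist and of Y-linked genes appeared together in many cells. Of the 181 cells, 80 held UMIs of both kinds, 21 of Xist alone, 35 of Y-linked genes alone and 45 of neither. The Y-linked UMIs had 1.46 reads per UMI and the Xist UMIs 9.57. Xist stood at 124, 63.3, 91.9 and 63.6 CPM in LV of libraries A to D and 66.6, 125, 85.7 and 142 in RV (log2 -0.29, -0.96 to 0.39, edgeR adjusted p = 0.999), and each library and label held both kinds. Ddx3y gave 264 of the 270 Y-linked UMIs, and it has a close copy on the X chromosome, so its reads may be shared. These RNAs could not be used to tell whether the LV and RV cells of a library came from the same animals.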

How the data were processed

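The authors deposited UMI counts and read counts per gene and well, not normalized, with labels per well. Per the submitters' processing notes STAR 2.5.4b, featureCounts and GRCm38 were used. Whether strand was used in counting could not be read from the labels. Per the labels' protocols the barcoded products of the wells were pooled before amplification. GENCODE M21 symbols (GRCm38) matched 24489 of 24522 gene IDs. The 21 columns without a label and the ERCC rows (56) stayed out of sums and tests. The live and fixed experiment was not used here. UMIs of the kept cells were summed per library and label, and edgeR 4.0.16 (glmQLFit, glmQLFTest) was run on nuclear-encoded genes with TMM factors (0.968 to 1.05), filterByExpr, library as a block and Benjamini-Hochberg adjustment. The common biological coefficient of variation was 0.342, with 3 residual degrees of freedom. The tests and intervals also used 15.5 prior degrees of freedom, which edgeR borrows across genes. Values over 4 libraries were compared by exact paired sign-flip permutation, two-sided. Doublets were not called. All 48 cell barcodes occurred in all 4 libraries and served both labels, so wells were identified by library and barcode.

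LV and RV sums of a library were taken as a pair because they share that library. Their deviations from the label means, across genes, correlated at 0.044 to 0.163 within a library and at -0.14 to 0.037 between libraries. The gene lists and the rule were chosen with earlier results of these data known. Genes were named as the 10 with the smallest p in each direction among those with the same sign in 4 of 4 libraries (predicted genes left out), all tested patterning and sex genes, and the 3 most abundant tested members of each other list, together with members chosen after their values were seen (such as Cacna1c, Egr1, Phka1, Pdlim3, Sema3a and the single-well genes). Alternatives were other scalings, DESeq2 1.42.0, other filters on genes and cells, thinning, read counts, no block, and each library left out. Intervals of single values cover counting error only. The fitting script was tested on simulated data. Some genes that the rule names are not reported here.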

Additional observations from a re-analysis of the deposited data

Results flagged for a closer look

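Of 82 groups of 4 values examined, 6 held a value far from the other 3 by Dixon's test, and chance alone flags about 1 group in 20. The median gene UMIs per ERCC UMI of LV stood apart in library B, at 119.3. Nkiras2 was low in LV of library C (4.76 CPM), Ky was high in LV of library C (22.2 CPM) and Ralb was high in RV of library B (54.6 CPM). Among list medians, library C stood apart for calcium handling (log2 LV over RV 0.26) and for the regulators of energy metabolism (0.33). Outside the labelled wells, the 21 barcode columns without a label held at most 67 gene UMIs.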

How the results depend on the processing

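The counts of 0 genes called higher in LV and 0 higher in RV were the same under every alternative run except the removal of library C. Leaving out each library in turn gave 0 to 4 genes higher in LV and 0 higher in RV. The 4 genes came without library C and not without library C and the Eln-rich cell of library A (0 called). With no replicate block edgeR also called 0 genes, 194 at an unadjusted p under 0.05, so the block changed no call. The ratio of gene UMIs per ERCC UMI changed sign without library C, and the mean log2 ran from -0.24 to 0.14 over the 4 removals. Detected genes had a mean log2 ratio of 0.0055 at 5000 UMIs and of -0.0073 at 10000; the cause of these sign changes was not tested. For 0 of 2518 genes under 30 CPM did the interval exclude a 1.5-fold difference; depth and the spread over 4 libraries both enter that interval and were not separated.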

Other observations

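Further gene lists gave 0 calls between LV and RV. Arntl, the activator of the circadian clock, stood at 44.96, 30.0, 30.1 and 17.1 CPM in LV of libraries A to D and at 13.0, 8.40, 17.1 and 24.1 in RV (log2 0.96, 95% interval -0.22 to 2.14), higher in LV in 3 of 4 libraries. Rsad2, an antiviral gene of the interferon response, was higher in RV in 4 of 4 libraries, with 26.7, 28.3, 7.93 and 1.55 CPM in LV and 39.0, 30.8, 48.2 and 14.2 in RV (log2 -1.28, -2.51 to -0.051, edgeR adjusted p = 0.999). Its LV and RV values overlapped. Ankrd1, a stretch-responsive ankyrin repeat gene, had a log2 ratio of -0.094 (-0.62 to 0.44), and Vegfa, of the hypoxia list, of 0.071 (-0.37 to 0.51). Trim63, a ubiquitin ligase of muscle atrophy, had a log2 ratio of -0.0066 (-0.37 to 0.36).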
